A study of Chlamydomonas reinhardtii with 45 samples.

Results

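The Calvin-Benson cycle is the set of chloroplast reactions that fixes CO2 into sugar phosphates, and 10 of its enzyme genes were followed through osmotic stress in Chlamydomonas reinhardtii, a unicellular green alga. The genes were listed by name and gene identifier, with earlier results of these data known. They are RBCS1 (Cre02.g120100), RBCS2 (Cre02.g120150), RCA1 (Cre04.g229300), PGK1 (Cre11.g467770), GAP3 (Cre01.g010900), FBA3 (Cre05.g234550), FBP1 (Cre12.g510650), SEBP1 (Cre03.g185550), TRK1 (Cre02.g080200) and PRK1 (Cre12.g554800). Of these 10, 8 were found by identifier among the 17737 genes analysed, with 9 of the 19526 transcripts, and 7 of the 9 transcripts were tested. PGK1 and GAP3 were not analysed here.

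RNA-seq was performed on vegetative haploid cells of the wild-type strain CC-4533, grown in acetate-containing medium under continuous low light. All 45 libraries came from this strain and these conditions. Cells received 100 mM NaCl or 300 mM mannitol and were collected after 15, 30 or 60 min or 4, 6 or 24 h, with 3 libraries for each of the 12 combinations of osmolyte and time. Untreated cells gave 5 libraries at the start, named control 0 h, and 4 libraries a day later, named control 24 h. Both osmolytes raise the osmotic pressure outside the cell, and NaCl adds ions as well. The doses of 100 mM and 300 mM also differ. In a comparison at the same time, an effect of ions and an effect of osmotic strength therefore cannot be told apart. The study's methods state that the time points of a treatment were taken from the same flask, so the times are not independent cultures.

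In the cycle, Rubisco joins CO2 to ribulose 1,5-bisphosphate, a reduction phase turns the product into triose phosphates, and a regeneration phase rebuilds the acceptor. In Chlamydomonas the Rubisco small subunit is encoded in the nucleus by RBCS1 and RBCS2 and the large subunit in the chloroplast, and most Rubisco is packed into the pyrenoid, a body in the chloroplast that is supplied with concentrated CO2. Several regeneration enzymes are switched on in the light through thioredoxin, so the amount of transcript is only one of the levels at which the cycle is regulated.

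The deposited values were TPM, the share of a library taken by a transcript after correction for its length, scaled to the same total in every library. That total was 1000000, so sequencing depth cannot be read from it and the errors given are the spread between libraries alone. The share of all TPM that went to a single transcript, g15293.t1, ranged from 5.33% to 52.3% across libraries, and the 7 tested cycle transcripts together took between 0.236% and 0.975%. Values were therefore scaled by the median ratio over the 10428 transcripts detected in every library, with factors from 0.685 to 1.65, and all levels below are scaled TPM. The log2 factors followed the share of g15293.t1 only in part (Pearson r = -0.48). That share averaged 25.4% at control 0 h and 26.1% at control 24 h, at mean factors of 1.31 and 0.976. What else moved the factors was not tested. With TPM as deposited, the log2 fold change of the median transcript was shifted down by as much as 0.63 against control 0 h. The 14 libraries numbered 49 or higher, 1 in each group, differed from the rest for several members. They are called the second library series here, although the labels name no batch.

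All 7 tested members were abundant. Their mean deposited TPM ran from 203 for FBP1 to 3444 for RBCS2, and their levels stood above those of 97.3% to 99.6% of the 13651 transcripts tested. A difference was called where limma gave an adjusted p under 0.01, after Benjamini-Hochberg adjustment over all tested transcripts, and a fold change over 2. Over the 12 comparisons of a treated group with control 0 h, 3 of the 84 pairs of member and comparison were called (3.57%), against 9.85% of all pairs of transcript and comparison. These 12 comparisons share their control libraries. With TPM as deposited, 0 pairs were called higher and 11 lower, against 1 higher and 2 lower after scaling, so the balance of directions depended on the scaling. The same held over all transcripts. As deposited, 13.2% of their 163812 pairs were called, 4761 higher and 16892 lower, against 9304 higher and 6824 lower after scaling. The 11 member decreases as deposited included TRK1 at 30 min (-1.10), 60 min, 4 h and 24 h (-1.16) of NaCl and FBP1 at 30 min of NaCl (-1.21, adjusted p = 6.00e-04). The 3 calls after scaling fell at 60 min: RBCS1 was higher in NaCl, TRK1 was lower in NaCl and FBP1 was lower in mannitol. Fewer transcripts of a gene per cell and more RNA from other genes cannot be told apart in these values.

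**Figure D1:**
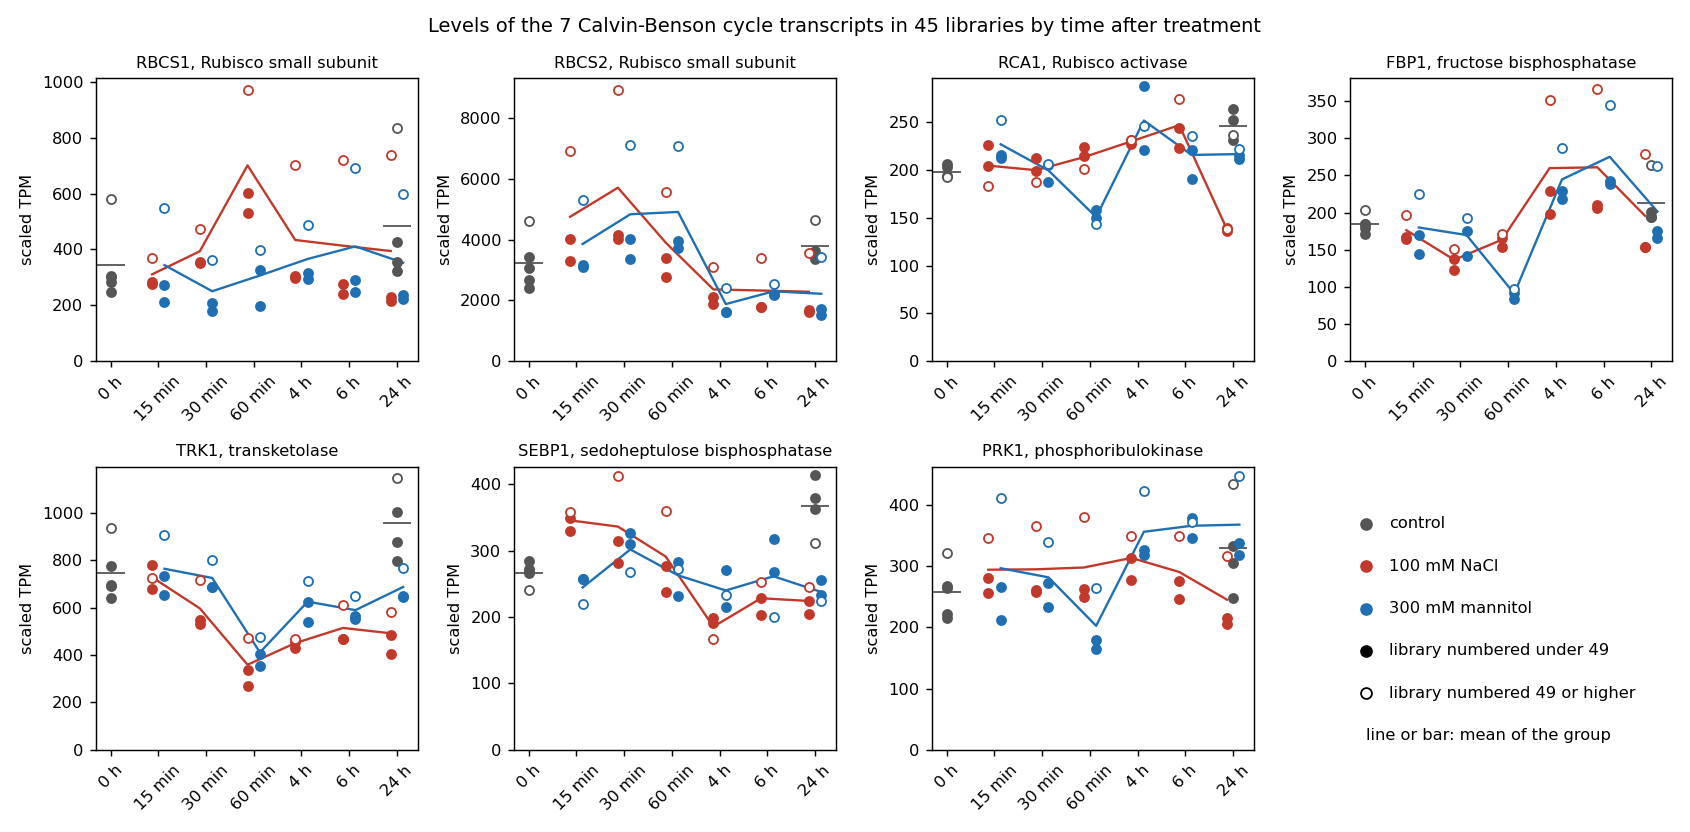
Scaled TPM of the 7 tested members (y axis, linear, from 0) at each collection time (x axis, categories) in 45 libraries. Points are libraries, open points are those numbered 49 or higher, lines join the means of the NaCl (red) and mannitol (blue) groups, and bars mark the means of the control groups. RBCS1 in NaCl peaks at 60 min at a mean of 701 ± 238 (SD), FBP1 in mannitol dips at 60 min to 90.9 ± 6.41, and the open points lie above the filled ones in all 14 groups for RBCS1 and RBCS2.

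The members differed in how much they varied. Across the 14 group means on the log2 scale, RCA1 covered a 1.81-fold range, PRK1 1.84-fold and SEBP1 1.97-fold, and only 12.6%, 14.1% and 20.1% of tested transcripts covered a smaller one. TRK1 (2.70-fold), RBCS1 (2.82-fold), RBCS2 (2.88-fold) and FBP1 (2.97-fold) lay near the median of all tested transcripts, 2.73-fold. The spread between libraries of the same group, as a pooled SD of log2 values, was lowest for RCA1 (0.10) and highest for RBCS1 (0.62), against a median of 0.33. Much of the spread of RBCS1 went with the library series: its second-series library was higher than the mean of the others in 14 of 14 groups, by 1.03 on average on the log2 scale, a difference exceeding that of 97.1% of tested transcripts. The corresponding mean differences were 0.80 for RBCS2, 0.45 for PRK1, 0.43 for FBP1 and 0.31 for TRK1, but 0.00 for RCA1 and -0.02 for SEBP1. Values within the series or from a fit with the series as a block are therefore given beside several of the results.

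RBCS1 encodes one of the Rubisco small subunits. At control 0 h its 5 libraries stood at 302, 246, 305, 282 and 579 scaled TPM, and after 60 min of NaCl its 3 libraries stood at 600.4, 529 and 972. The highest control library, from the second series, lay within the range of the treated libraries, and the other 4 controls lay below all of them. The fitted increase was 1.05 on the log2 scale (SE 0.28, limma with Benjamini-Hochberg adjusted p = 0.00708, n = 3 and 5), and 13.6% of all tested transcripts were called higher in this comparison. The difference was 0.99 within the first series and 0.75 between the single libraries of the second. With the series as a block it was 0.93 (SE 0.11, adjusted p = 1.60e-05), under the 2-fold threshold. It was 0.31 with TPM as deposited (adjusted p = 0.389), so the call rested on the scaling. It was also lost when any of control 0 h replicates 1 to 4 or replicates 1 or 3 of the treated group was left out, with values from 0.79 to 1.13 and adjusted p from 0.0166 to 0.0406.

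After 60 min of mannitol the RBCS1 libraries stood at 325, 196 and 398, all below the lowest NaCl library of the same time. The direct difference between NaCl and mannitol at 60 min was 1.20 on the log2 scale (SE 0.32, adjusted p = 0.0131), the largest of the 147 fitted member differences in size, and it missed the threshold. In this comparison same-numbered libraries deviated together, and with the replicate number as a block the difference was called (SE 0.18, adjusted p = 3.01e-04). It was also called with the series as a block (adjusted p = 9.09e-04) and with TPM as deposited (1.15, adjusted p = 0.00498), and it was 0.84 after quantile normalization. In the other 11 treated groups the means of RBCS1 lay between 250.4 ± 97.7 at 30 min of mannitol and 434 ± 232 at 4 h of NaCl (SD, n = 3 each), and none was called against control 0 h.

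RBCS2 encodes the other small subunit and was the most abundant member in every group. Its control 0 h libraries stood at 3429, 2684, 3055, 2423 and 4603 scaled TPM. After 30 min of NaCl they stood at 4162, 4024 and 8928, and after 4 h of mannitol at 1611, 1620.3 and 2400.4. The first-series libraries were thus above all 4 first-series controls at 30 min of NaCl and below all of them at 4 h of mannitol. By 24 h the NaCl libraries stood at 1693, 1612 and 3546 and the mannitol libraries at 1700.0, 1519 and 3429.9. In both 24 h groups the second-series library exceeded the lowest control, so these groups overlapped with control 0 h, while at 4 h of mannitol no library reached the lowest control.

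After scaling no RBCS2 comparison was called, and its largest fitted difference, at 24 h of mannitol against control 24 h, was -0.86 (SE 0.29, adjusted p = 0.129). Within the first series that difference was -1.12, and between the single libraries of the second it was -0.44. The only call with TPM as deposited was at 24 h of NaCl against control 0 h (-1.12, adjusted p = 0.00599), where the scaled difference was -0.57. With the series as a block, 7 of its 12 comparisons with control 0 h passed the adjusted p, all under 2-fold, where 19.6% of all pairs of transcript and comparison passed. The 5 decreases were at 4 h (-0.54), 6 h (-0.62) and 24 h (-0.68) of NaCl and at 4 h (-0.86) and 24 h (-0.73) of mannitol, with adjusted p between 2.04e-04 and 0.00245. They were also negative with TPM as deposited and with quantile normalization. The 2 increases were at 30 min of NaCl (0.63, adjusted p = 7.17e-04) and 60 min of mannitol (0.47, adjusted p = 0.00268). Both were negative under the other scalings with the same block, at -0.13 and -0.18 as deposited and at -0.10 and -0.52 after quantile normalization, so no direction is given for RBCS2 within the first hour.

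The ratio of the small subunit transcripts within a library does not depend on the scaling. The ratio of RBCS2 to RBCS1 was 9.76 ± 1.47 (SD, n = 5) at control 0 h and 8.58 ± 2.23 (n = 4) at control 24 h. In NaCl the ratio was 14.9 ± 3.43 at 15 min and 14.01 ± 4.17 at 30 min, then 5.53 ± 0.27 at 60 min, and between 5.90 and 6.55 from 4 h on (n = 3 each). In mannitol it was 11.97 ± 2.48 at 15 min, 19.2 ± 0.42 at 30 min and 16.3 ± 3.63 at 60 min, and between 5.18 and 6.65 from 4 h on. At 60 min the NaCl libraries (5.22 to 5.71) lay below and the mannitol libraries (12.1 to 18.9) above every control 0 h library (7.94 to 11.4), a description for which no test was run. The genes are neighbours on chromosome 2 with 0 genes between them, and they encode near-identical proteins. How reads matching both were assigned is not given in the sources used here, so the split between them is uncertain.

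**Figure D2:**
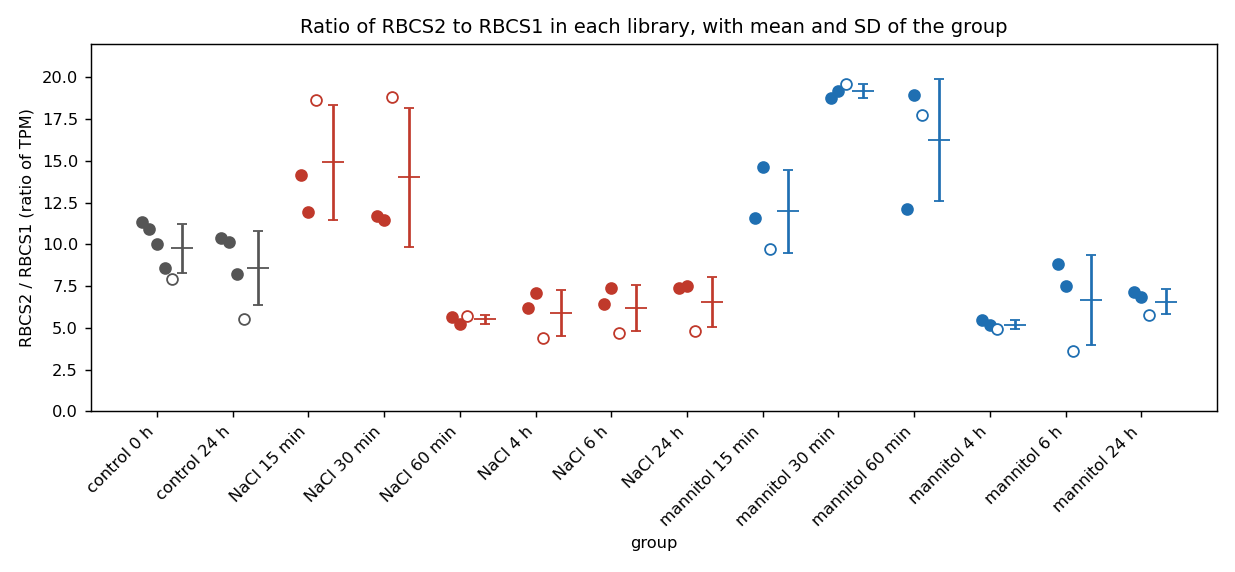
Ratio of RBCS2 to RBCS1 TPM (y axis) in each library of the 14 groups (x axis), with the mean and SD of each group beside the points. Open points are libraries numbered 49 or higher. The ratio stands at 5.53 at 60 min of NaCl and at 16.3 at 60 min of mannitol, and at 4 to 24 h the means lie between 5.18 and 6.65 in both osmolytes.

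RCA1 encodes Rubisco activase, which frees Rubisco from inhibitory sugar phosphates. It was the steadiest member until 24 h of NaCl, where its libraries stood at 136, 139.8 and 138 scaled TPM against 253, 231, 263 and 236 at control 24 h. All 3 treated libraries lay below every control library. It fell by 0.83 on the log2 scale (SE 0.15, adjusted p = 0.00341), which is under 2-fold and so was not called. In this comparison 14.2% of all transcripts passed the adjusted p. The difference was -0.85 within the first series, -0.77 in the second, and -0.98 with TPM as deposited. After quantile normalization it was -0.70 and did not pass (adjusted p = 0.0147). The mannitol libraries at 24 h stood at 212, 216 and 222, a difference of -0.18 from control 24 h (SE 0.15, adjusted p = 0.522). The direct difference between NaCl and mannitol at 24 h was -0.65 (SE 0.17, adjusted p = 0.0389), and with the series as a block it passed the threshold on adjusted p (adjusted p = 5.02e-04), as it did with the replicate number as a block (adjusted p = 0.00222), but not with the series block and TPM as deposited (adjusted p = 0.0285). At 60 min of mannitol RCA1 stood at 150.1, 158 and 144, below all control 0 h libraries, with a difference of -0.39 that did not pass (adjusted p = 0.0499). RCA1 was called there with TPM as deposited (-1.08, adjusted p = 0.00166) and at 24 h of NaCl against control 0 h (-1.07, adjusted p = 0.00503), where the scaled difference was -0.52.

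FBA3, the chloroplast fructose bisphosphate aldolase of the regeneration phase, has 2 transcripts in the data. One was listed at 0 in all 45 libraries, and the gene was listed at 0 in 35 libraries and at most 0.221 TPM in the others, so it was not tested. Genes with more than 1 transcript were listed low in general. Of 1530 such genes 91.0% had a summed mean under 1 TPM, against 29.2% of the 16207 genes with 1 transcript. The value of FBA3 is therefore not read as a level of expression.

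FBP1 encodes fructose 1,6-bisphosphatase, which removes a phosphate on the way back to ribulose phosphates. Its control 0 h libraries stood at 179, 171, 184, 185 and 203 scaled TPM and its libraries after 60 min of mannitol at 91.5, 84.2 and 97.0. The groups did not overlap. FBP1 fell by 1.01 on the log2 scale (SE 0.16, adjusted p = 2.42e-04), and 9.70% of all transcripts were called lower in this comparison. Without replicate 2 of the treated group or replicate 5 of control 0 h it came just under 2-fold (-0.96 and -0.98). The difference was -1.03 within the first series, -1.06 in the second and -1.70 with TPM as deposited.

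After 60 min of NaCl the FBP1 libraries stood at 154, 165 and 171. The difference from control 0 h was -0.17 (SE 0.13, adjusted p = 0.271), against -0.90 with TPM as deposited (adjusted p = 0.00484) and -0.44 after quantile normalization. NaCl exceeded mannitol at this time by 0.84 (SE 0.20, adjusted p = 0.00654), under 2-fold, with no overlap between the groups. It did not pass with TPM as deposited (0.79, adjusted p = 0.0202) or after quantile normalization (0.66, adjusted p = 0.0185). Over the 6 direct comparisons of the osmolytes, this was the 1 of 42 member pairs that passed the adjusted p, against 7.38% of all pairs. At 4 and 6 h FBP1 was above the first-series controls in every library of both osmolytes, with means from 245 ± 36.98 at 4 h of mannitol to 275 ± 60.2 at 6 h of mannitol. With the series as a block, only the difference at 6 h of mannitol (0.51, adjusted p = 0.00545) passed among these, and with the same block and TPM as deposited it was 0.27 (adjusted p = 0.522).

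TRK1 encodes transketolase, which moves carbon pairs between sugar phosphates during regeneration. Its control 0 h libraries stood at 775, 639, 692, 695 and 934 scaled TPM. After 60 min of NaCl its libraries stood at 269.6, 337 and 469.9, and after 60 min of mannitol at 354, 403 and 476. Every treated library lay below every control in both osmolytes. TRK1 fell by 1.08 on the log2 scale in NaCl (SE 0.19, adjusted p = 6.38e-04), where 15.4% of all transcripts were called lower. Without replicate 1 of the treated group the difference was -0.89 and without replicate 5 of control 0 h it was -0.997, each under 2-fold. In mannitol it fell by 0.86 (SE 0.19, adjusted p = 0.00264), past the adjusted p, as did 33.9% of all transcripts, but under 2-fold. The direct difference between the osmolytes at 60 min was -0.22 with a standard error of 0.26 (adjusted p = 0.525). Within the first series the differences from control were -1.21 in NaCl and -0.89 in mannitol, and in the second -0.99 and -0.97.

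At 4 h of NaCl TRK1 stood at 453, 429 and 468, below all controls, and its decrease of 0.72 passed the adjusted p (SE 0.16, adjusted p = 0.00644), as did 16.4% of all transcripts. By 24 h the NaCl libraries stood at 406, 486 and 583 and the control 24 h libraries at 797, 877, 1003 and 1148. TRK1 was lower by 0.96 against control 24 h (SE 0.21, adjusted p = 0.00819), and the groups did not overlap. After quantile normalization this difference was -0.51 and did not pass (adjusted p = 0.0435). In mannitol the libraries were at 538, 624 and 712 at 4 h and 649, 642 and 769 at 24 h, and no mannitol time other than 60 min passed against control 0 h. With the series as a block TRK1 passed the adjusted p as lower in 6 comparisons with control 0 h. They were 30 and 60 min and 4, 6 and 24 h of NaCl and 60 min of mannitol. In that order, 34%, 49.1%, 27.6%, 25.9%, 25.9% and 42.7% of all transcripts passed with this block, in either direction. All 6 TRK1 differences were also negative with TPM as deposited and after quantile normalization.

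SEBP1 encodes sedoheptulose 1,7-bisphosphatase, which acts only in the regeneration phase. Its control 0 h libraries stood at 284, 266, 269, 273 and 241 scaled TPM, its libraries at 4 h of NaCl at 191, 199 and 167 and its libraries at 24 h of NaCl at 204, 224 and 245. It was lowest at 4 h of NaCl, below every control. The largest fitted difference was at 24 h of NaCl against control 24 h, whose libraries stood at 414, 363, 379 and 312. It was -0.70 (SE 0.17, adjusted p = 0.0145) and was not called, although the groups did not overlap. The difference was -0.84 within the first series but -0.35 between the single libraries of the second. With the series as a block it passed the adjusted p (adjusted p = 9.32e-04), as did the difference of -0.50 at 4 h of NaCl from control 0 h (adjusted p = 5.00e-04). With this block SEBP1 at 24 h of NaCl differed from control 0 h by only -0.25 (adjusted p = 0.0687).

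PRK1 encodes phosphoribulokinase, which makes the CO2 acceptor itself and closes the cycle. After scaling it was not called in any comparison. It was called at 60 min of mannitol with TPM as deposited (-1.05, adjusted p = 0.00256), where the scaled difference was -0.36. Its control 0 h libraries stood at 268, 222, 263, 214 and 321 scaled TPM, and its group means ran from 202 ± 53.5 at 60 min of mannitol to 367 ± 69.6 at 24 h of mannitol. The largest fitted difference was between the osmolytes at 24 h, where NaCl libraries stood at 205, 214 and 316 and mannitol libraries at 337, 318 and 447. Every NaCl library lay below every mannitol library, with a difference of -0.59 (SE 0.25, adjusted p = 0.157), and with the series as a block the difference passed the adjusted p (adjusted p = 0.00107). It also passed with the replicate number as a block (adjusted p = 0.00436), but not with the series block and TPM as deposited (adjusted p = 0.0388).

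**Figure D3:**
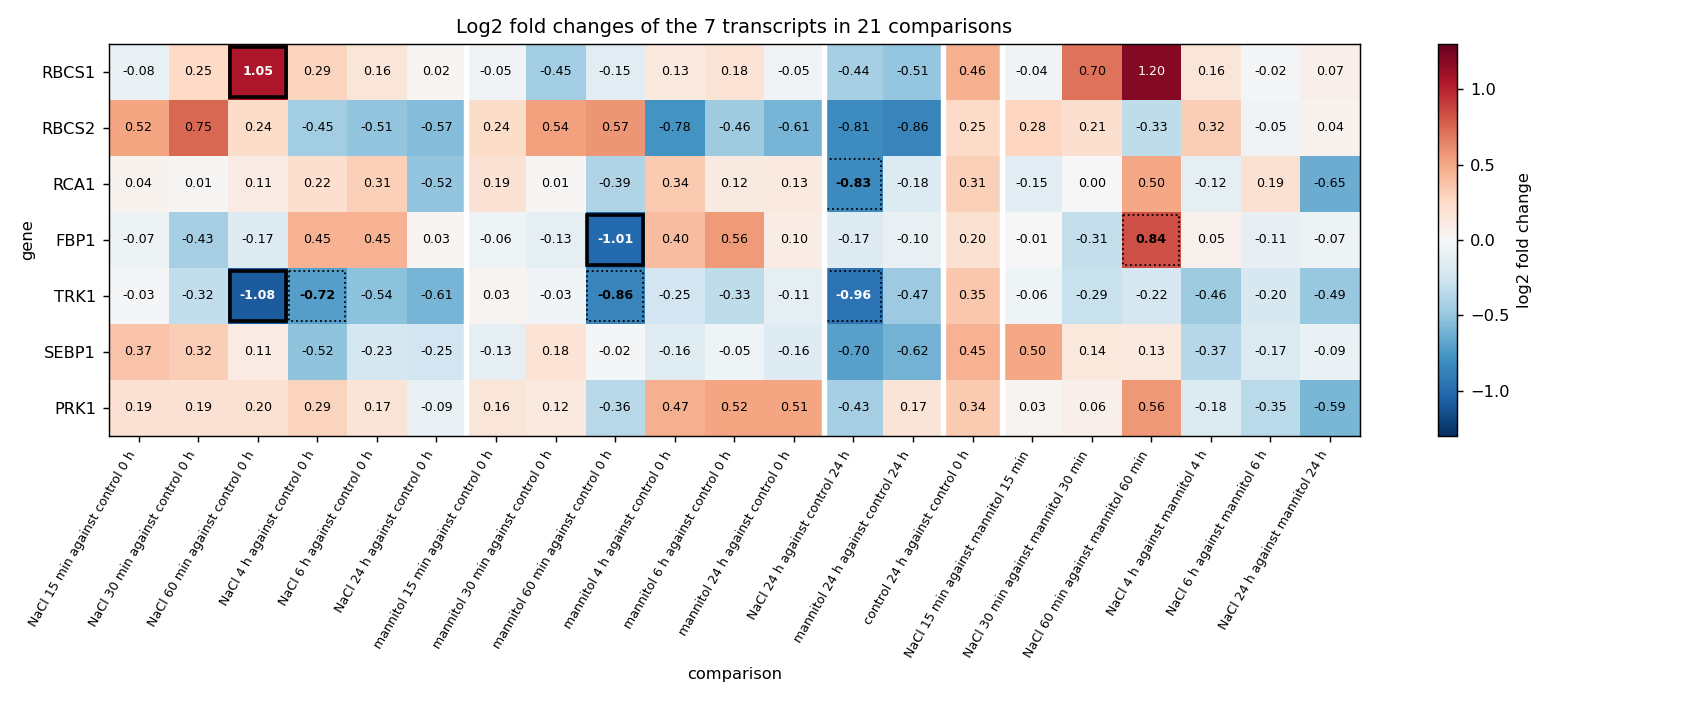
Log2 fold changes (colour and printed value) of the 7 tested members (y axis) in 21 comparisons (x axis). Solid frames mark calls (adjusted p under 0.01 and over 2-fold) and dotted frames pairs past the adjusted p alone. The 3 solid frames are RBCS1 (1.05) and TRK1 (-1.08) at 60 min of NaCl and FBP1 (-1.01) at 60 min of mannitol, and 143 of the 147 values lie within 1 of zero.

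At 24 h the treated cells can be compared with untreated cells of the same time in culture. Against control 24 h, all 7 differences were negative in NaCl, and their median of -0.70 compares with -0.0015 over all transcripts, and 6 of 7 were negative in mannitol, with a median of -0.47. By the limma test 0 of these 14 pairs were called, against 4.06% of all pairs called higher and 2.53% lower. The adjusted p was passed by 2, against 7.62% of all pairs. An unadjusted p under 0.05 was found for 7, for which no share of all pairs is given. With the series as a block, 10 of 14 passed the adjusted p as lower, against 10.3% of all pairs. They were RBCS1, RBCS2, TRK1 and SEBP1 in both osmolytes and RCA1 and PRK1 in NaCl. With this block 7 passed as lower with TPM as deposited and 4 after quantile normalization, where 1 pair passed as higher, so the number depended on the scaling. No share of all pairs is given under these other scalings.

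The control at 24 h was itself higher than at 0 h for all 7 members after scaling, by 0.20 to 0.46 on the log2 scale. With TPM as deposited only 2 of the 7 were positive and after quantile normalization 5 of 7, so the direction depended on the scaling. By the limma test 0 of the 7 were called, against 0.886% of all transcripts, and 3 had an unadjusted p under 0.05. With the series as a block 1 of the 7 passed the adjusted p, against 4.67% of all transcripts. It was SEBP1, higher at control 24 h by 0.46 (adjusted p = 0.00222). Against control 0 h, the median difference of the members at 24 h was -0.25 in NaCl and -0.05 in mannitol. In the direct comparisons of the osmolytes at the 6 times 0 of 42 pairs were called by the limma test. Over all transcripts, 3.81% of pairs were called higher in NaCl and 3.28% lower. At an unadjusted p under 0.05, 5 member pairs were higher and 3 lower in NaCl. No share of all transcripts is given for counts at an unadjusted p, so these are not read as a result.

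**Figure D4:**
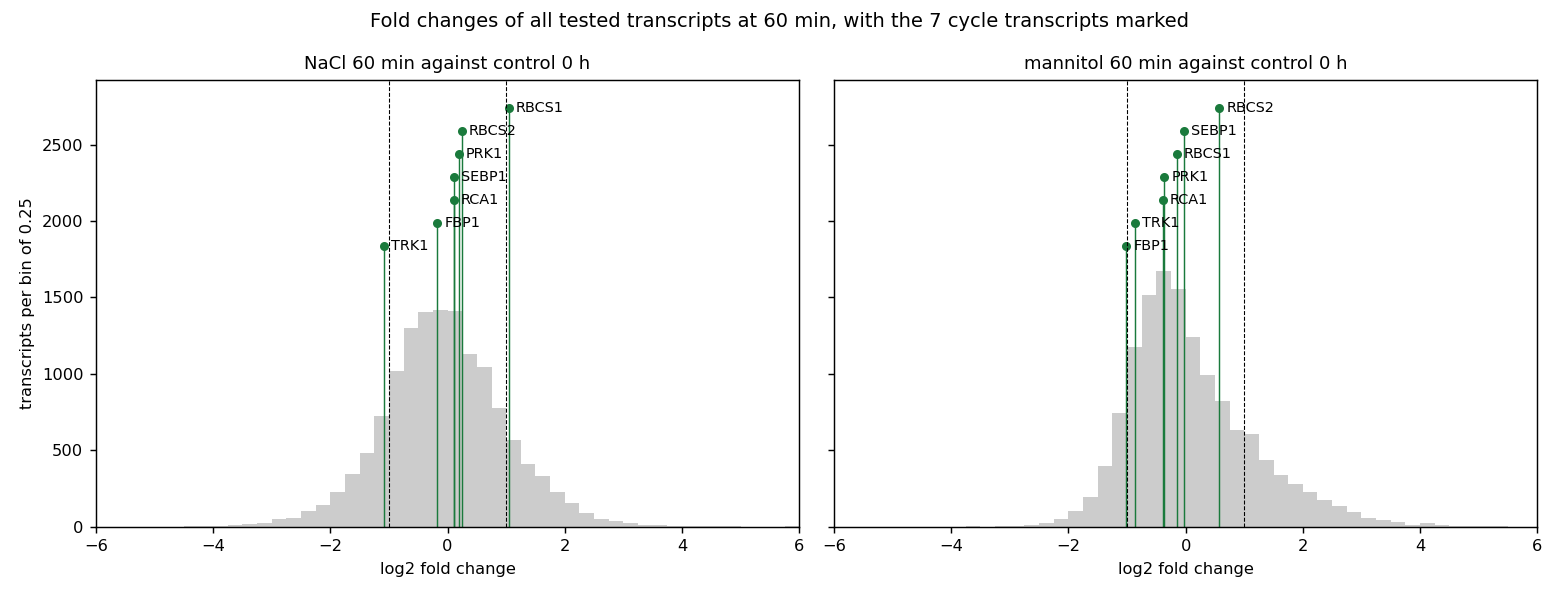
Distribution of log2 fold changes at 60 min against control 0 h (x axis, bins of 0.25) over all 13651 tested transcripts (y axis, transcripts per bin), NaCl on the left and mannitol on the right, with the 7 members marked by green lines whose heights carry no value. Dashed lines mark a 2-fold change. TRK1 lies at -1.08 in NaCl and -0.86 in mannitol, and RBCS1 at 1.05 and -0.15.

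The members did not share a single profile over the 14 group means. Of their 21 pairwise Pearson correlations, which rest on 14 groups that share flasks and control libraries, 14 were positive, with a median of 0.18. The highest were between RCA1 and PRK1 (0.76), FBP1 and PRK1 (0.75) and RBCS2 and SEBP1 (0.74), and the lowest between RBCS2 and FBP1 (-0.74). Among 6562 other transcripts with a mean of at least 5 TPM, those most like the mean profile of the members over the 14 groups were Cre12.g500950.t1.2 (r = 0.89) and Cre03.g172000.t1.2 (r = 0.87). The most opposite were Cre07.g322000.t1.2 (r = -0.85) and g11725.t1 (r = -0.84), with mean deposited TPM of 6.61 and 6.10. These transcripts are the extremes of 6562 correlations over the same 14 group means, a description for which no test was run.

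Other enzymes that share metabolites with the cycle were read from lists of named genes. Of 7 further cycle enzymes and partners, all tested, 1 of 84 pairs with control 0 h was called (1.19%, against 9.85% of all pairs). EPYC1, which encodes the pyrenoid linker protein that binds Rubisco, fell by 1.31 at 60 min of NaCl (adjusted p = 0.00381). In that comparison 15.4% of all transcripts were called lower. Against control 24 h, TPIC1, which encodes triose phosphate isomerase, fell by 1.17 at 24 h of NaCl (adjusted p = 0.00261). There 4.77% of all transcripts were called lower. FBA2, an aldolase, was lower in NaCl than in mannitol at 24 h, at -1.14 (adjusted p = 0.00500), where 2.02% of all transcripts were called lower. Values under other scalings are not given for EPYC1, TPIC1 and FBA2. FBA1, CP12, RPE1 and RPI1, the other listed genes of this kind, were not called in any of the 21 comparisons.

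Photorespiration recycles the product that Rubisco makes when it uses O2 in place of CO2. Of its 7 listed genes, 6 of 84 pairs were called and all were lower (7.14% of pairs). Over all transcripts, 6824 of 163812 pairs were called lower, and 9.85% were called in either direction. The 6 were the same 3 genes at 60 min in both osmolytes. At that time 15.4% of all transcripts were called lower in NaCl and 9.70% in mannitol. SHMT2, serine hydroxymethyltransferase, fell by 1.79 in NaCl and 1.41 in mannitol. HPR1, hydroxypyruvate reductase, fell by 1.45 in NaCl and 1.04 in mannitol. GCST1, a subunit of the glycine cleavage system, fell by 1.22 and 1.11, and the 6 adjusted p ran from 2.24e-05 to 0.00395. All 6 were called with TPM as deposited and after quantile normalization too. PGP1, phosphoglycolate phosphatase, was higher in NaCl than in mannitol at 60 min, by 1.28 (adjusted p = 7.58e-04). In that comparison 8.15% of all transcripts were called higher in NaCl. Of 6 listed glycolytic genes outside the cycle, 5 were tested and 1 of 60 pairs was called (1.67%, against 9.85% of all pairs). GAP1, a glyceraldehyde-3-phosphate dehydrogenase, fell by 1.62 at 60 min of mannitol (adjusted p = 9.59e-05). PFK2, a phosphofructokinase, rose by 1.24 at 24 h of NaCl against control 24 h (adjusted p = 4.50e-04), where 7.37% of all transcripts were called higher. Values under other scalings are not given for PGP1, GAP1 and PFK2.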

How the data were processed

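RNA-seq libraries of strain CC-4533 were grouped by the osmolyte and time in the labels. The authors aligned reads with BWA, called differential expression with DESeq2 and deposited TPM, 1 column per library. How TPM were computed is not given in the sources used here, and neither the read counts nor the counting errors are known. TPM were scaled by median ratios because 1 transcript varied widely, although the factors followed its share only in part (Pearson r = -0.48).

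Log2(scaled TPM + 1) was fitted with limma 3.58.1 in R 4.3.3 (lmFit, eBayes with trend and robust) for each comparison with its own libraries, over the 13651 transcripts with TPM of 1 or more in at least 3 libraries. P-values were adjusted by Benjamini-Hochberg within a comparison. Fold changes are on this scale, which understates changes of low transcripts. All tests were two-sided. Every tested member was named, with the fold changes of called pairs and, for members never called, the pair of largest size. Other pairs in the text were chosen after their values were seen. Members and lists were chosen with earlier results of these data known. The alternatives were another pseudocount, filter, scaling, threshold, joint fit or control set, sums per gene, plain eBayes, a block on replicate number or library series, and each replicate left out. After seeing the data, fits without a fold threshold and of the first series alone were added.

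Same-numbered libraries deviated together (every correlation over 0.1) in 5 of 21 comparisons, control 24 h against control 0 h and NaCl against mannitol at 60 min, 4 h, 6 h and 24 h. The procedure was also run on simulated data with independent noise, no library series and planted changes larger than any member difference. That run therefore does not bear on the member differences given here. Figures were drawn with Python 3.11.15 and matplotlib 3.10.9. Gene names were matched by identifier to a table of assembly v5.5. The positions of RBCS1 and RBCS2 on chromosome 2 were read from the same table.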

Additional observations from a re-analysis of the deposited data

Results flagged for a closer look

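RBCS1 in the fifth control 0 h library stood at 579 scaled TPM, far above the other 4 control 0 h libraries, whose highest value was 305. FBP1 in the fifth control 24 h library stood at 264 scaled TPM, while the other 3 lay between 194 and 201. Both libraries belong to the second library series. Of the 14 member and control group combinations examined for a library far from the rest, these 2 stood out, and chance sets aside about 1 in 20. The part of the library series in these values was not tested separately from the libraries themselves.

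FBP1 at 60 min was flagged for a difference between the osmolytes that was under 2-fold and so was not called. NaCl exceeded mannitol by 0.84 on the log2 scale (limma with Benjamini-Hochberg adjusted p = 0.00654), higher in 3 of 3 NaCl libraries than in every mannitol library. With TPM as deposited it was 0.79 (adjusted p = 0.0202) and after quantile normalization 0.66, and under neither did it pass the adjusted p.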

How the results depend on the processing

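Numbers of member calls were small, so single calls moved them. Over all transcripts, 16892 of 163812 pairs with control 0 h were called lower as deposited, against 6824 after scaling. With TPM as deposited, member calls in NaCl against control 0 h were 0 higher and 7 lower, in mannitol 4 lower, against control 24 h 1 lower, and between osmolytes 1 higher in NaCl. NaCl had 0 calls higher under quantile normalization, without a filter, in the joint fit, under plain eBayes, with all 9 controls and with the library series block. With all 9 controls mannitol had 2 lower. A log2 fold change over 2 left 0 calls higher or lower in NaCl and 0 lower in mannitol. A mean TPM of 5 or more, an adjusted p under 0.05 and the library series block each gave 1 call higher in NaCl than in mannitol. With the replicate number as a block, NaCl had 0 calls lower, mannitol 0 lower, and NaCl against mannitol 1 higher. These numbers pair samples in 5 of 21 comparisons only, and the block changed no other count of calls. The TRK1 decrease at 24 h of NaCl against control 24 h, where they do not, was -0.65 with it (adjusted p = 0.193). Without a fold threshold, added after seeing the data, there were 2 calls lower in NaCl, 2 lower in mannitol, 2 lower against control 24 h and 1 higher in NaCl than in mannitol. The first series alone, also added, gave 0 higher in NaCl and 2 lower against control 24 h. Leaving out single replicates gave 0 to 1 calls higher and 0 to 1 lower in NaCl, 0 to 1 lower in mannitol, 0 to 2 lower against control 24 h and 0 to 1 higher in NaCl than in mannitol. The cause was not tested. The RBCS1 increase at 60 min of NaCl lost its call under 9 of 15 alternatives (0.31 to 1.255), and the TRK1 and FBP1 decreases at 60 min lost theirs under 2 each. Without read counts, the counting error of FBA3 and other low values is unknown.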

Other observations

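The light-harvesting antenna and photosystem I feed the cycle with energy and reducing power. Of 9 listed LHCBM genes of the photosystem II antenna, 5 were tested, and 2 of 60 pairs with control 0 h were called higher and 3 lower. Together this was 8.33% of pairs, near the 9.85% of all pairs. LHCBM9, an antenna gene known to be induced by nutrient stress, rose by 3.51 at 24 h of NaCl against control 0 h (adjusted p = 1.95e-05) and by 2.36 against control 24 h (adjusted p = 0.00200). LHCBM4 rose by 1.44 at 60 min of NaCl (adjusted p = 6.16e-05), where it was 0.72 with TPM as deposited and not called (adjusted p = 0.0345), and fell by 1.02 at 24 h of NaCl (adjusted p = 0.00306). It was also lower at 24 h of NaCl than at control 24 h, at -2.17. LHCBM2 fell by 1.45 and LHCBM5 by 1.24 at 60 min of mannitol (adjusted p = 0.00219 and 9.37e-05). Between the osmolytes at 60 min, LHCBM2 was higher in NaCl by 1.69 and LHCBM4 by 1.39. LHCBM genes are close paralogs, so the assignment of reads among them is uncertain.

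Of 9 listed nuclear genes of photosystem I, 6 were tested and 1 of 72 pairs was called (1.39%, against 9.85% of all pairs). PSAN, a subunit on the lumenal side, fell by 1.28 at 60 min of mannitol (adjusted p = 1.93e-04). Values under other scalings are not given for PSAN, LHCBM2, LHCBM5 and LHCBM9.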
